A study of Papio anubis with 767 samples.

Results

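Punches labelled Arcuate nucleus were compared with punches labelled Ventromedial hypothalamus, 2 neighbouring nuclei of the medial basal hypothalamus, in the olive baboon (Papio anubis, written Papio anubis hamadryas in the labels). The members are the 12 libraries of the first label and the 12 of the second, 24 of the 767 libraries of a series that covers 64 tissue labels. They were chosen by label alone and paired by zeitgeber time (ZT, hours after lights on), because each ZT is a single animal. All 12 animals were males of 5 to 6 years and 7 to 11 kg, housed with 12 h light and 12 h dark, given food 2 times a day, and sampled at steps of 2 h from ZT0 to ZT22. No animal carried a transgene or received a treatment by the labels, so the groups differ by label in the place of the punch alone, apart from 2 columns described below that do not match their own animal. Libraries were stranded and made from polyadenylated RNA, and a level is given throughout in FPKM (fragments scaled for gene length and library depth). In punches of whole tissue, fewer cells of a type and less RNA per cell cannot be told apart.

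The arcuate nucleus lies at the floor of the third ventricle above the median eminence, where hypothalamic axons release their hormones into the portal blood of the anterior pituitary. Its AgRP/NPY neurons stimulate feeding and its POMC neurons restrain it, both acting through melanocortin receptors, and its GHRH neurons drive growth hormone release. Tanycytes, elongated glial cells with processes in the ventricle wall, line this region. The ventromedial nucleus is mostly glutamatergic, is defined in development by the nuclear receptor SF-1 (gene NR5A1), and is known for roles in satiety, glucose balance, defence and sexual behaviour. Dorsal and lateral to it lie the dorsomedial and lateral areas, home of the melanin-concentrating hormone (PMCH) and orexin (HCRT) neurons.

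Reads assigned to genes ran from 2.84 M to 7.88 M in the arcuate libraries (median 4.86 M) and from 3.53 M to 7.33 M in the ventromedial ones (median 5.84 M). Mitochondrial messenger RNA took 14.2% to 37.1% of the reads in the former and 19.4% to 45.3% in the latter. The arcuate column of ZT4 and the ventromedial column of ZT10 carry the suffix approx, which no source used here explains. Over 100 genes that differ between animals, each of the other 22 libraries matched its own animal best (r from 0.522 to 0.924), whereas the approx column of the arcuate nucleus had r = -0.09 with its own animal and 0.60 with that of ZT6. The approx column of the ventromedial hypothalamus had r = -0.17 with its own animal and 0.54 with that of ZT8. Each approx column also lay closer to the mean of the libraries 2 h before and after it, with r = 0.980 and 0.991, than any of the 22 others did, whose r ran from 0.835 to 0.964. Pairs at ZT4 and ZT10 are therefore not pairs within an animal by these values, and results are given with and without them. The ventromedial libraries of ZT4 and ZT18 stood apart in their AGRP, 269.5 and 399.1 FPKM against 2.30 to 25.2 FPKM in the other 10. The ventromedial library of ZT4 correlated best with an arcuate library, that of ZT16 (r = 0.939). It is dropped along with the approx column of its pair, so all results without the approx pairs lack this library too. In turn the arcuate libraries of ZT10, ZT14 and ZT16 correlated best with ventromedial libraries, those of ZT0, ZT2 and ZT18 (r = 0.942, 0.940 and 0.951).

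The arcuate label carried its defining peptides in every library. AGRP, the endogenous melanocortin receptor antagonist, had a lowest level of 103.2 FPKM (ZT8), a median of 309.7 and a highest of 2222 FPKM (ZT18) in the arcuate libraries. Ventromedial libraries held at lowest 2.30 FPKM of it (ZT16), at the median 9.00 and at highest 399.1 FPKM (ZT18). Only the ventromedial libraries of ZT4 and ZT18 reached into the arcuate range. The ventromedial label was less clear by its own markers. NR5A1 ran from 0.853 FPKM (ZT0) over a median of 6.23 to 69.1 FPKM (ZT6) in the ventromedial libraries, and from 0.250 over 5.30 to 19.8 FPKM in the arcuate ones. FEZF1, a transcription factor of ventromedial neurons, ran from 0.991 FPKM (ZT8) over a median of 9.55 to 65.8 FPKM (ZT6) in the ventromedial libraries and from 0.894 over 6.95 to 24.4 FPKM in the arcuate ones. Ventromedial libraries at ZT0, ZT4, ZT8, ZT14 and ZT20 held NR5A1 under 1.3 FPKM, so the range of the ventromedial label covers the whole range of the arcuate label for this gene apart from its lowest values. Of all 64 labels, Ventromedial hypothalamus had the highest mean FEZF1 (15.1 FPKM) and Arcuate nucleus the next (8.41 FPKM).

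**Figure D1:**
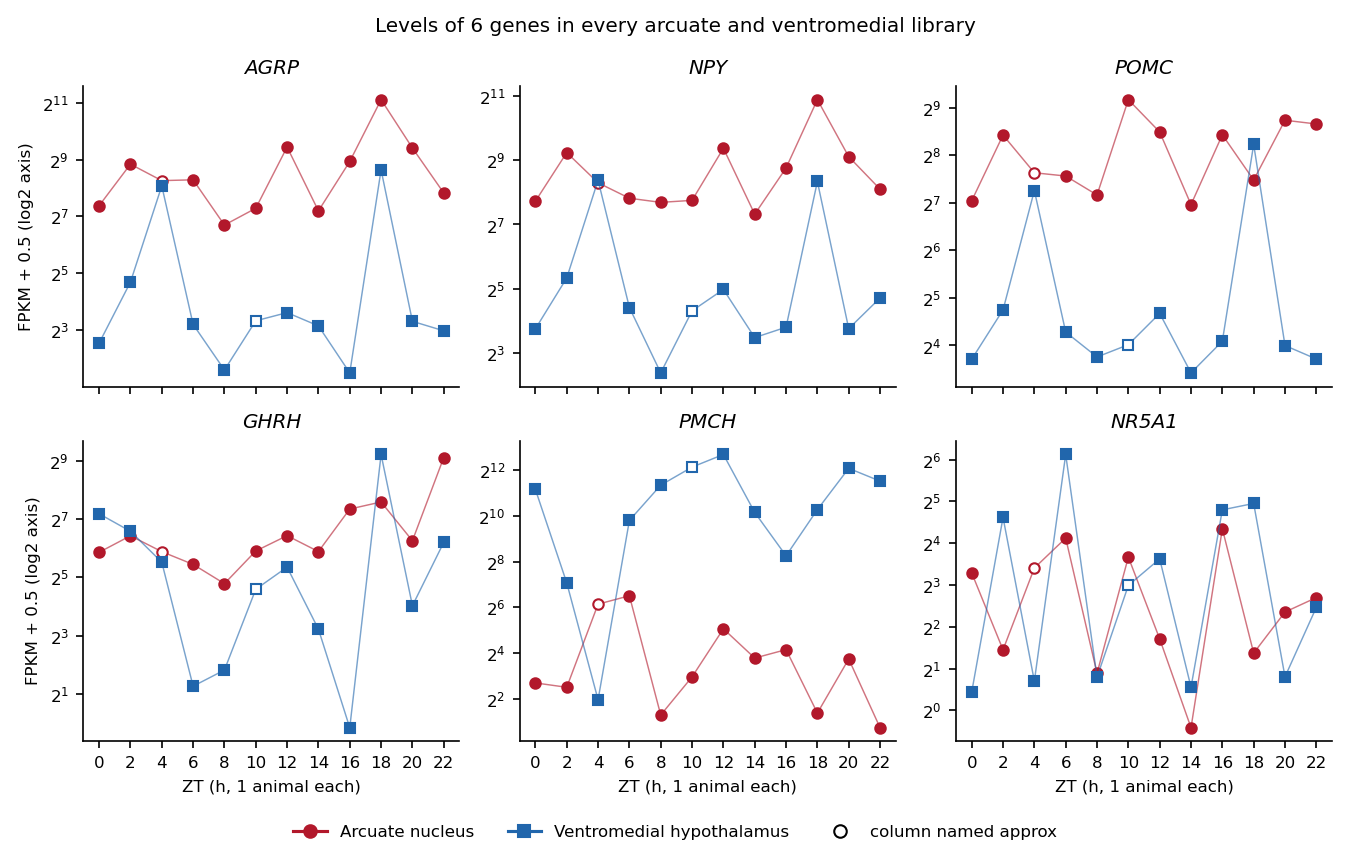
Level of 6 genes in each library against zeitgeber time, as FPKM + 0.5 on a log2 axis. Red circles are arcuate libraries, blue squares ventromedial libraries, and open symbols the approx columns. Each filled point is 1 library of 1 animal. For AGRP, NPY and POMC the ventromedial libraries of ZT4 and ZT18 reach the arcuate range and the other 10 lie below it, for PMCH the ventromedial library of ZT4 alone reaches the arcuate range, and for NR5A1 and GHRH the labels overlap widely.

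Across all genes, 3084 of 14326 tested (21.5%) differed between the labels at an adjusted p under 0.05 (limma on log2(FPKM + 0.5), with the animal as a block and Benjamini-Hochberg adjustment). Of these, 1680 (11.7% of those tested) were higher in the arcuate libraries and 1404 (9.8%) lower. This balance depended on scaling, with 1506 higher and 1835 lower after median-of-ratios scaling of the 24 libraries and 1413 higher and 1580 lower after quantile normalization, so no weight is put on it. The median difference over all genes was 0.06 on the log2 scale. Counts of the gene lists below stand beside these shares of 11.7% higher and 9.8% lower over all genes. Without both pairs that hold an approx column 3326 genes were called. The count fell to 1911 without the pair of ZT8, 997 of them higher and 914 lower, and to 2046 without that of ZT12, 1054 of them higher. Below, "higher" and "lower" refer to the arcuate relative to the ventromedial libraries, differences are on the log2(FPKM + 0.5) scale with their standard error over 12 pairs, which understates the change of genes with low values, and adjusted p-values are from this fit.

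The 12 named genes with the largest differences in each direction were called in all of the up to 25 other settings and selections of libraries, with adjusted p-values up to 0.0468. Each of these 24 genes kept its direction in at least 11 of the 12 pairs, which the rule that chose them requires. Among the genes that were higher, 10 pairs in all went the other way, 9 of them the pair of ZT4 and the remaining pair that of ZT18 for POMC. Among those that were lower, 10 pairs went the other way, 7 of them at ZT4. For each of the 24 genes the ranges of both labels overlapped. Where the call of another gene given below with its values did not hold in all other settings, the number in which it held stands beside it.

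**Figure D2:**
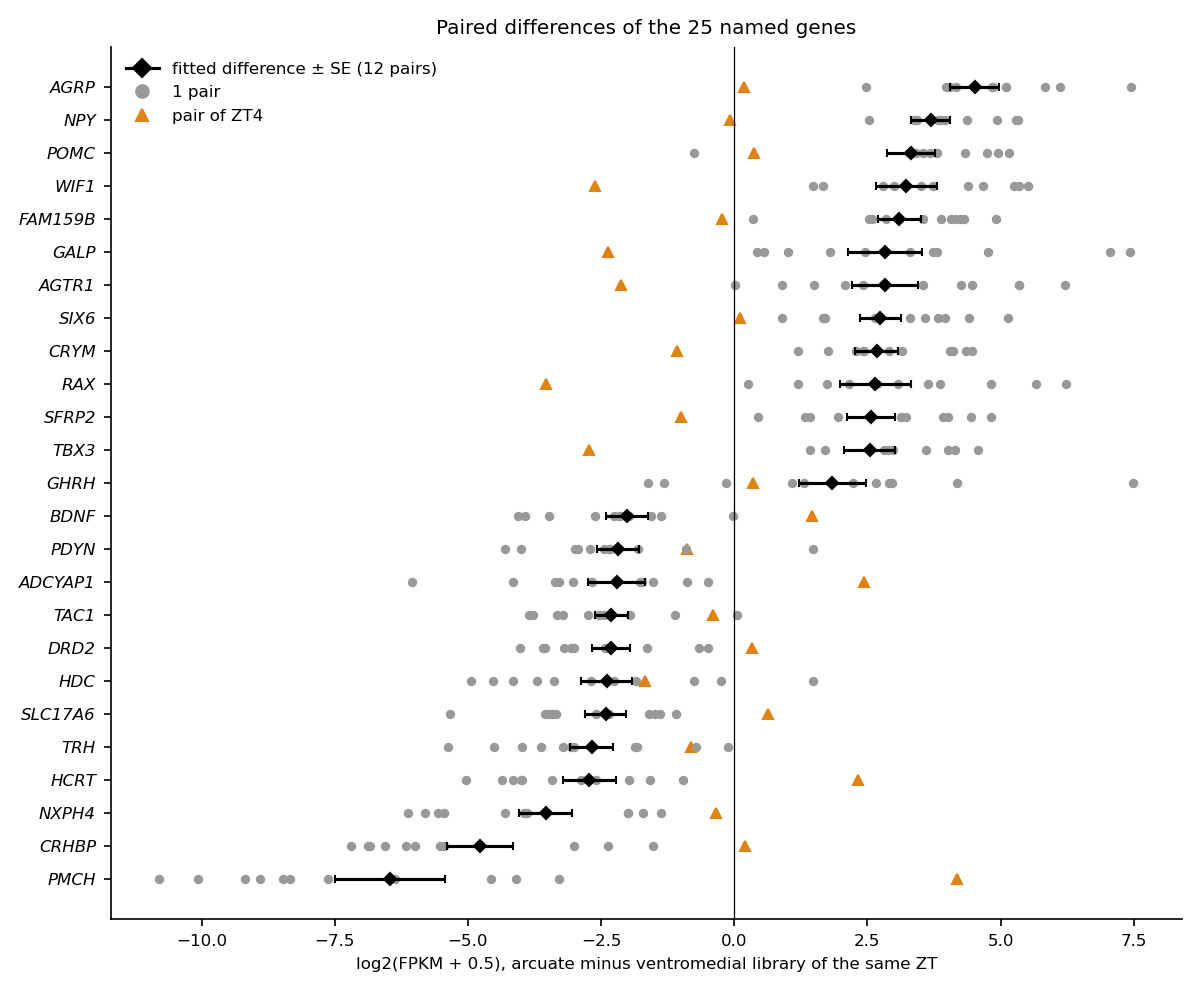
Arcuate minus ventromedial difference in log2(FPKM + 0.5) for 25 genes, one row a gene; grey points are the 12 pairs, the orange triangle the pair of ZT4, and the diamond with its bar the fitted difference and its standard error. Fitted differences ran from 2.54 to 4.51 in the 12 higher genes and from -6.47 to -2.01 in the 12 lower ones. The triangle lies on the other side of 0 from the diamond for 9 of the 12 higher genes and 7 of the 12 lower ones.

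AGRP, NPY, POMC and GALP, feeding peptides of the arcuate nucleus, were higher there, while CARTPT, described below, was lower. AGRP had the largest difference of the named higher genes, 4.51 ± 0.46 (adjusted p = 0.000529), and was higher in 12 of 12 pairs, with means of 497.2 and 63.2 FPKM. Leaving out the approx pairs gave 5.00, but this also drops the ventromedial library of ZT4, not an approx column, with its high AGRP. Leaving out ZT4 and ZT18 gave 5.15, but these were picked after their high ventromedial AGRP was seen. A larger AGRP difference follows from that choice itself. NPY, made with AgRP in the same neurons and also a stimulator of feeding, ran from 159.1 FPKM (ZT14) over a median of 293 to 1873 FPKM (ZT18) in the arcuate libraries. It ran from 4.76 FPKM (ZT8) over 20.2 to 331.2 FPKM (ZT4) in the ventromedial ones. Its difference was 3.69 ± 0.37 (adjusted p = 0.000529), and the pair of ZT4 was the exception among 12. Both genes peaked in the same arcuate library, that of ZT18, and their high ventromedial libraries were the same pair, ZT4 and ZT18.

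POMC, the precursor of α-MSH and β-endorphin, ran from 124.3 FPKM (ZT14) over a median of 270.6 to 575.9 FPKM (ZT10) in the arcuate libraries. Among the ventromedial libraries it ran from 10.2 FPKM (ZT14) over 16.1 to 299.8 FPKM (ZT18). The difference was 3.32 ± 0.45 (adjusted p = 0.0017). POMC is also made by the anterior pituitary, whose label in this series had a mean of 1289 FPKM, so the pituitary hormone subunit CGA is given beside it. CGA reached 317.6 and 678.5 FPKM in the arcuate libraries of ZT0 and ZT8, which held 131.4 and 143.1 FPKM of POMC, and 97.9 FPKM in that of ZT10, which held the most POMC. The arcuate libraries of ZT0, ZT8 and ZT18, with the most CGA, all lay under the median POMC of their label. By the summed anterior pituitary markers the highest were those of ZT8, ZT0 and ZT20 (1958, 1894 and 1286 FPKM). The part of pituitary tissue in the POMC level was not tested.

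GALP, galanin-like peptide, is made by arcuate neurons that respond to leptin. It ran from 6.30 FPKM (ZT6) over a median of 51.3 to 124.4 FPKM (ZT18) in the arcuate libraries and from 0 (ZT14) over 4.59 to 111.9 FPKM (ZT4) in the ventromedial ones, with 4 of the 12 ventromedial libraries inside the arcuate range. The difference was 2.83 ± 0.70 (adjusted p = 0.0139).

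GHRH, the releasing hormone of growth hormone, separated the labels least of the 3 marker genes. It ran from 27 FPKM (ZT8) over a median of 67.4 to 549.2 FPKM (ZT22) in the arcuate libraries and from 0.397 FPKM (ZT16) over 31.9 to 590.5 FPKM (ZT18) in the ventromedial ones. In 6 of the 12 ventromedial libraries it reached the arcuate range, and it was lower in the arcuate library of 3 pairs, ZT0, ZT2 and ZT18. The difference was 1.84 ± 0.63 with an adjusted p of 0.0491, which rose to 0.0563 without the approx pairs (difference 2.04). It stayed under the threshold in 11 of 25 other settings, over which the adjusted p ran from 0.0237 to 0.0964.

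Not all arcuate peptides were higher. Of the 14 on the list, all tested, 4 were higher (AGRP, NPY, POMC and GHRH), 4 were lower (TRH, PDYN, PENK and CARTPT) and 6 were not called, with a median difference of 0.08. CARTPT, the precursor of the anorexigenic peptide CART, had means of 57.2 and 146.7 FPKM and a difference of -1.35 ± 0.29 (adjusted p = 0.00738). KISS1, which encodes kisspeptin, the peptide that drives GnRH release, had means of 26.5 and 18.6 FPKM and a difference of 1.02 ± 0.64 that was not called (adjusted p = 0.252). Without the approx pairs the difference of KISS1 was 1.79 and was called (adjusted p = 0.0205). SST, the peptide somatostatin that inhibits growth hormone release, was abundant in both labels, with medians of 712.6 and 318.8 FPKM, and was not called (0.59 ± 0.32, adjusted p = 0.184).

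Of the 17 listed genes of the melanocortin pathway 6 were higher, 3 lower and 8 not called (median 0.21). Beside the ligands AGRP and POMC, the higher genes were the receptor MC3R (0.76 ± 0.25, adjusted p = 0.0439), the NPY receptors NPY2R (1.08 ± 0.35) and NPY5R (0.75 ± 0.22), and PRCP, a peptidase that inactivates α-MSH (1.00 ± 0.19, adjusted p = 0.00421). PRCP had means of 53.6 and 24.2 FPKM. The lower genes were CARTPT, MRAP2, an accessory protein of melanocortin receptors (-0.53 ± 0.15, adjusted p = 0.0233, held in 22 of 25 settings), and MC4R, the melanocortin receptor on which feeding control chiefly rests. MC4R ran from 0.246 FPKM over a median of 1.65 to 6.44 FPKM in the arcuate libraries and from 2.07 over 5.49 to 11.5 FPKM in the ventromedial ones (-1.32 ± 0.34, adjusted p = 0.015). MC3R, at a median of 1.90 FPKM in the arcuate and 0.805 in the ventromedial libraries, thus differed in the other direction from MC4R; its call held in 13 of 24 other settings, that of NPY2R in 11 of 24 and that of NPY5R in 18 of 25.

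The list of feeding and metabolic receptors, which holds receptors of peripheral and of central signals and the neurotrophin BDNF, was mixed. Of 20 tested on that list 5 were higher and 4 lower (median 0.20), where 11.7% of all genes tested were higher and 9.8% lower. GHSR, the ghrelin receptor, ran from 3.18 FPKM over a median of 5.13 to 15.1 FPKM (ZT18) in the arcuate libraries and from 1.04 over 2.49 to 7.26 FPKM (ZT4) in the ventromedial ones, a difference of 1.00 ± 0.23 (adjusted p = 0.01). The adiponectin receptor ADIPOR2 was higher by 0.76 ± 0.14 (adjusted p = 0.00383). CALCR, the calcitonin and amylin receptor subunit, was lower (-0.99 ± 0.28, adjusted p = 0.0235, held in 22 of 25 settings), as was the orexin receptor HCRTR2 (-0.77 ± 0.18). LEPR, the leptin receptor, had means of 2.21 and 1.48 FPKM and was not called (0.57 ± 0.22, adjusted p = 0.0729). In the growth hormone axis, 3 of 12 tested genes were higher: GHRH, GHSR and the growth hormone receptor GHR (0.67 ± 0.18, held in 22 of 24 settings). The transcription factor HMX2, needed for GHRH neurons in development, was lower there (-1.31 ± 0.26, adjusted p = 0.00552), with means of 1.36 and 3.93 FPKM.

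The reproductive axis showed GNRH1 and OPRK1 higher and PDYN and NPVF lower, among 9 tested. GNRH1, the gonadotropin-releasing hormone, ran from 7.69 FPKM (ZT14) over a median of 30.7 to 117.4 FPKM (ZT2) in the arcuate libraries and from 3.67 over 6.07 to 29.4 FPKM (ZT18) in the ventromedial ones (1.86 ± 0.38, adjusted p = 0.00639). OPRK1, the kappa opioid receptor, was higher by 1.49 ± 0.37. ESR1, the estrogen receptor alpha, was at a median of 1.00 FPKM in the arcuate and 0.423 FPKM in the ventromedial libraries and was not called (0.79 ± 0.30, adjusted p = 0.0676), though it was without the approx pairs (adjusted p = 0.0374). Without the approx pairs 5 of this list were higher. TH, which makes the dopamine precursor in tuberoinfundibular neurons, was higher, with a lowest level of 2.45, a median of 16.4 and a highest of 63.8 FPKM against 1.57, 5.71 and 32.6 FPKM (1.30 ± 0.30, adjusted p = 0.011). Of the 4 tested genes on the dopamine neuron list, TH was higher, ALDH1A1 and NR4A2 were lower and 1 was not called (median -0.03).

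Of 20 tested transcription factors of the developing hypothalamus 6 were higher (SIX6, RAX, TBX3, SIX3, LHX2 and OTP) and 2 lower (HMX2 and FOXB1), with a median of 0.20. SIX6, a homeobox gene of the basal hypothalamus and eye, ran from 6.66 FPKM (ZT14) over a median of 21.1 to 37.6 FPKM (ZT16) in the arcuate libraries. The ventromedial libraries ran from 0.224 FPKM (ZT14) over 2.14 to 15.7 FPKM (ZT4). It was higher in 12 of 12 pairs, by 2.74 ± 0.39 (adjusted p = 0.0017). SIX3, its close relative, had means of 44.6 and 10.3 FPKM (2.52 ± 0.41, adjusted p = 0.00231). Of all 64 labels, Arcuate nucleus had the highest mean of SIX6, SIX3, OTP and RAX.

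TBX3, a T-box factor of arcuate neurons and tanycytes, had a lowest level of 11.7, a median of 43.1 and a highest of 109.4 FPKM (ZT8) in the arcuate libraries, against 1.83, 5.18 and 94.5 FPKM (ZT4) in the ventromedial ones (2.54 ± 0.48, adjusted p = 0.00411). OTP, a factor of neuroendocrine and AgRP neurons, was higher by 1.84 ± 0.31 (adjusted p = 0.00256), with medians of 13.6 and 3.37 FPKM. NR5A2, a relative of NR5A1, differed where NR5A1 did not: its medians were 2.15 and 0.293 FPKM and its difference 1.42 ± 0.28 (adjusted p = 0.00517), while NR5A1 had -0.33 ± 0.53 (adjusted p = 0.672). Of the arcuate transcription factors and receptors, 8 of 15 tested were higher and 2 lower, with a median of 0.76 against 0.06 over all genes.

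Tanycyte genes were higher. Of 9 tested 6 were higher (CRYM, RAX, GPR50, LHX2, FRZB and VIM), none was lower and 3 were not called, with a median of 1.52. RAX, the homeobox gene that marks tanycytes, was uneven among the arcuate libraries, from 1.02 FPKM (ZT4) over a median of 3.98 to 32.1 and 37.2 FPKM at ZT0 and ZT8. In the ventromedial libraries it was at 17 FPKM at ZT4 and at most 1.15 FPKM in the 11 others, with a listed 0 at ZT6, ZT8, ZT14 and ZT16. Its difference was 2.65 ± 0.66 (adjusted p = 0.0142). CRYM, a thyroid hormone-binding protein, ran from 130.7 FPKM (ZT14) over 355.1 to 971.3 FPKM (ZT0) against 17 over 39.4 to 376.8 FPKM (ZT4), a difference of 2.67 ± 0.40 (adjusted p = 0.00192). GPR50, an orphan receptor related to the melatonin receptors, was higher by 2.14 ± 0.46 and VIM, an intermediate filament protein, by 1.29 ± 0.24. Summed over the list, tanycyte markers ran from 514.5 over 1001 to 2236 FPKM (ZT8) in the arcuate libraries and from 294 over 476.3 to 1064 FPKM (ZT4) in the ventromedial ones. Ciliated ependymal markers did not move with them: of 8 tested none was higher and 2 were lower, a share near the 21.5% called over all genes. Those 2, CCDC153 and AK7, both lost the call without the approx pairs (adjusted p = 0.0566 and 0.0982). These calls held in 17 and 12 of 25 settings.

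WIF1, SFRP2 and FRZB, which encode secreted inhibitors of Wnt signalling, were higher. WIF1, Wnt inhibitory factor 1, had a lowest level of 50.1 FPKM (ZT6), a median of 178.1 and a highest of 643.6 FPKM (ZT0) in the arcuate libraries, against 4.02, 19.4 and 378.2 FPKM (ZT4) in the ventromedial ones (3.23 ± 0.57, adjusted p = 0.00343). SFRP2, a secreted frizzled-related protein, ran from 4.87 over 27.3 to 79.4 FPKM against 0.804 over 2.68 to 32.5 FPKM (2.57 ± 0.44, adjusted p = 0.00304). FRZB, of the same family and also on the tanycyte list, had means of 60.6 and 18.4 FPKM (1.52 ± 0.29, adjusted p = 0.00478). These 3 genes were put together after their values were seen. The remaining named higher genes were AGTR1, the type 1 angiotensin II receptor, with medians of 8.41 and 0.684 FPKM (2.83 ± 0.62), and FAM159B, with medians of 31 and 1.94 FPKM (3.10 ± 0.40). AGTR1 was highest at ZT0 (77.4 FPKM), as WIF1, SFRP2 and CRYM were.

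Markers of tissue beside the arcuate nucleus moved with these genes, and their part in the differences was not tested. Of the anterior pituitary list, 12 of 13 genes are in the table, 6 were tested and 4 were higher (CGA, TSHB, PITX1 and TBX19), with a median of 1.59. Their sum ran from 81.4 FPKM (ZT16) over 290 to 1958 FPKM (ZT8) in the arcuate libraries and from 94.3 (ZT16) over 130.7 to 619.1 FPKM (ZT4) in the ventromedial ones, where GH1 was listed at 0 in all 12. CGA, the common subunit of the glycoprotein hormones, ran from 0.348 FPKM (ZT16) over 92.7 to 678.5 FPKM (ZT8) against 0.370 (ZT16) over 4.31 to 192.5 FPKM (ZT4), with a difference of 3.35 ± 0.96 (adjusted p = 0.024). It was called in 19 of 25 other settings. The calls of TSHB, TBX19 and PITX1 were lost in 15, 5 and 3 of the up to 25. The tuberal part of the pituitary, which expresses CGA and TSHB, lies against the median eminence.

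Meningeal fibroblast genes were higher in 5 of 9 tested (OGN, LUM, DCN, COL1A1 and COL1A2), with none lower and a median of 1.39. OGN, a small proteoglycan, had a median of 27.5 and a highest of 325.2 FPKM (ZT8) against 6.03 and 90.3 FPKM (2.49 ± 0.53, adjusted p = 0.0073). The summed markers ran from 690.7 over 2109 to 9262 FPKM (ZT8) in the arcuate and from 581 over 1652 to 2383 FPKM in the ventromedial libraries. The arcuate library of ZT8 was thus the highest in pituitary, meningeal and tanycyte sums alike, and the lowest of its label in the pan-neuronal sum, 461.5 FPKM.

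Vasopressin and oxytocin were higher in the arcuate libraries. AVP ran from 9.91 FPKM (ZT14) over a median of 429.1 to 1101 FPKM (ZT6) against 5.95 (ZT14) over 27.7 to 526.9 FPKM (ZT16), with a difference of 2.41 ± 0.72 (adjusted p = 0.0287). OXT had medians of 152 and 16.4 FPKM (2.09 ± 0.63, adjusted p = 0.03). Both calls were lost without the approx pairs, with adjusted p-values of 0.0748 and 0.0789, and held in 17 and 15 of 25 settings. These peptides are made in the supraoptic and paraventricular nuclei, whose labels had mean AVP of 16970 and 4221 FPKM, and their axons pass through the median eminence. Of the 5 tested genes of those nuclei, 3 were higher (AVP, OXT and OTP) and 2 lower (TRH and NTS). The call of NTS was lost in 7 of the up to 25 settings.

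Microglial genes were slightly higher, in 6 of 10 tested with none lower and a median of 0.44. Of these calls, those of TREM2, C1QB and C1QC were lost in 18, 14 and 13 of the up to 25 other settings, median-of-ratios scaling among them. CSF1R, the growth factor receptor of microglia, was higher by 0.47 ± 0.12 (adjusted p = 0.0147) and the fractalkine receptor CX3CR1 by 0.59 ± 0.17 (held in 22 of 25 settings). Without ZT4 and ZT18 there were 3 such genes. The pan-neuronal list went the other way: 8 of 12 genes were lower, none higher, with a median of -0.65. The calls of SNAP25, NEFH and STMN2 were lost in 14, 12 and 1 of the up to 25 other settings. For SNAP25 and NEFH quantile normalization was among them. NEFL, the neurofilament light chain, had medians of 56.4 and 108.6 FPKM (-1.02 ± 0.23, adjusted p = 0.00934), and the neuronal hydrolase UCHL1 was lower in 12 of 12 pairs (-0.69 ± 0.16). Summed pan-neuronal markers ran from 461.5 (ZT8) over 1157 to 1629 FPKM in the arcuate libraries and from 1120 over 1695 to 2270 FPKM in the ventromedial ones. No myelin gene of 13 and no astrocyte gene of 10 was called; GFAP, the astrocyte filament protein, had means of 2002 and 1060 FPKM (0.55 ± 0.46, adjusted p = 0.391). Of the astrocyte list 2 genes were lower without the approx pairs.

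**Figure D3:**
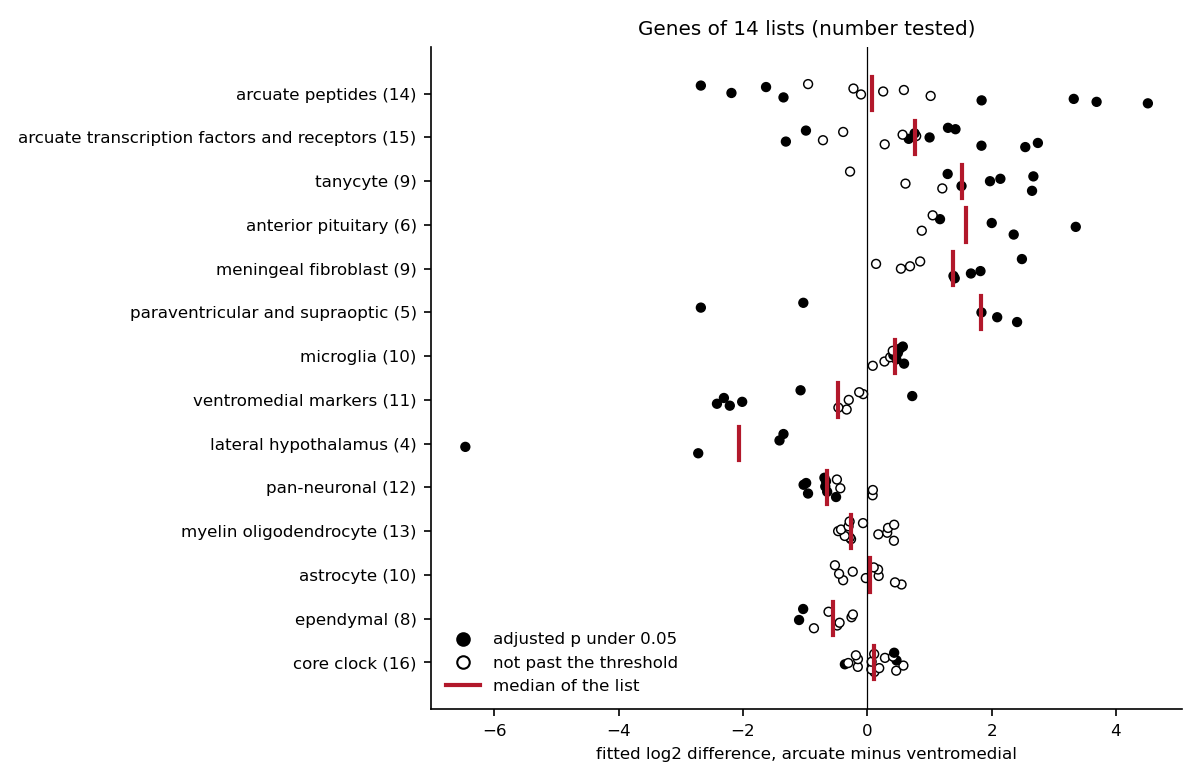
Arcuate minus ventromedial difference in log2(FPKM + 0.5) for the tested members of 14 gene lists; each point is a gene, filled where its adjusted p was under 0.05, and the red bar is the list's median. Tanycyte, meningeal and anterior pituitary lists have medians between 1.39 and 1.59, the pan-neuronal list -0.65 and the lateral hypothalamus list -2.07, against 0.06 over all genes tested.

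The largest difference among the genes lower in the arcuate libraries was that of PMCH, followed by CRHBP and NXPH4, with HCRT next. PMCH, the precursor of melanin-concentrating hormone, ran from 1.16 FPKM (ZT22) over a median of 10.1 to 90.6 FPKM (ZT6) in the arcuate libraries. Among the ventromedial libraries it ran from 3.38 FPKM (ZT4) over 1768 to 6633 FPKM (ZT12). The ventromedial library of ZT4 alone lay inside the arcuate range, and the 11 others held at least 134.3 FPKM. The difference was -6.47 ± 1.03 (adjusted p = 0.00222), and -7.26 without the approx pairs. HCRT, the orexin precursor that promotes wakefulness and feeding, ran from 0.759 FPKM (ZT14) over 12.3 to 85.1 FPKM (ZT16) against 7.81 (ZT4) over 91.1 to 1530 FPKM (ZT16), a difference of -2.72 ± 0.50 (adjusted p = 0.00388). Here 6 of the 12 ventromedial libraries lay inside the arcuate range.

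All 4 tested members of the lateral hypothalamus list (PMCH, HCRT, NPVF and CARTPT) were lower, with a median of -2.07. NPVF, the RFamide peptide precursor that restrains reproduction, was lower by 1.41 on the log2 scale (-1.41 ± 0.38, adjusted p = 0.0186, held in 23 of 25 settings). The summed level of the list ran from 30.8 over 86.9 to 266.1 FPKM in the arcuate libraries and from 53.9 (ZT4) over 2290 to 7283 FPKM (ZT12) in the ventromedial ones. Thus the libraries labelled Ventromedial hypothalamus held markers of adjoining areas at high levels while NR5A1 was low in many of them; the part of those areas in the differences was not tested.

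CRHBP, which binds corticotropin-releasing hormone, was low in the arcuate libraries. It ran from 0.358 over 0.919 to 4.25 FPKM there and from 2.96 (ZT4) over 86.5 to 192.1 FPKM (ZT14) in the ventromedial ones (-4.78 ± 0.61, adjusted p = 0.00144). NXPH4, a secreted ligand of neurexins, was lower in 12 of 12 pairs, with medians of 0.812 and 15.9 FPKM (-3.54 ± 0.50, adjusted p = 0.0017). TRH, the thyrotropin-releasing hormone, was also lower in 12 of 12, from 1.28 over 4.68 to 15.4 FPKM against 8.80 (ZT4) over 34.7 to 73.6 FPKM (-2.68 ± 0.41, adjusted p = 0.00205). HDC, the enzyme that makes histamine in tuberomammillary neurons, had medians of 4.88 and 45.1 FPKM (-2.40 ± 0.48, adjusted p = 0.00549), and its ventromedial level was lowest at ZT16 (3.12 FPKM) rather than at ZT4. DRD2, a dopamine receptor, had medians of 1.19 and 8.17 FPKM (-2.31 ± 0.36, adjusted p = 0.00209).

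Several markers of ventromedial neurons were lower in the arcuate libraries although NR5A1 and FEZF1 were not called. Of 11 tested, 5 were lower (SLC17A6, TAC1, ADCYAP1, BDNF and CBLN1) and 1, the imprinted gene DLK1, higher (0.72 ± 0.25, adjusted p = 0.0488, held in 13 of 25 settings), with a median of -0.46. SLC17A6, the vesicular transporter VGLUT2 of glutamatergic neurons, ran from 1.05 FPKM (ZT8) over 8.86 to 30.5 FPKM (ZT6) against 9.64 (ZT4) over 50.5 to 90.5 FPKM (ZT14), a difference of -2.42 ± 0.39 (adjusted p = 0.0023). ADCYAP1, the precursor of the peptide PACAP, ran from 0.630 (ZT8) over 9.96 to 57.2 FPKM (ZT6) against 6.45 (ZT4) over 55.5 to 196.8 FPKM (ZT6), a difference of -2.21 ± 0.53 (adjusted p = 0.0121). The arcuate and ventromedial libraries of ZT6 were each the highest of their label for ADCYAP1, FEZF1 and PENK. BDNF, a neurotrophin that curbs feeding in this nucleus, had medians of 1.10 and 6.38 FPKM (-2.01 ± 0.40, adjusted p = 0.00548). SLC17A6, ADCYAP1, TAC1 and BDNF are also expressed in other hypothalamic areas.

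The tachykinin precursor TAC1 and the opioid precursors PDYN and PENK were lower, while POMC, which also holds an opioid peptide, was higher. TAC1, the precursor of substance P, ran from 11.4 over 42.2 to 93.3 FPKM against 75.5 (ZT4) over 198.5 to 329.9 FPKM (-2.31 ± 0.32, adjusted p = 0.0017). PDYN, which encodes the dynorphins, ran from 1.74 (ZT8) over 13.1 to 73.7 FPKM (ZT14) against 26.3 over 76.5 to 115.1 FPKM (-2.18 ± 0.39, adjusted p = 0.00344). PENK, the enkephalin precursor, was lower by 1.63 on the log2 scale (-1.63 ± 0.45, adjusted p = 0.0209, held in 24 of 25 settings). Of the 10 tested genes of the tachykinin, opioid and galanin families 4 were lower (these 3 and the nociceptin receptor OPRL1) and 2 higher (GALP and OPRK1). The kappa receptor and its ligand precursor PDYN therefore differed in opposite directions. GABA neuron genes gave little: DLX1 and GAD2 were lower (-0.74 ± 0.24 and -0.71 ± 0.24, adjusted p = 0.0394 and 0.0475), and neither was called without the approx pairs (adjusted p = 0.0622 and 0.0597). Their calls held in 13 and 7 of 25 settings. Of 10 tested genes of neuropeptide processing 1 was higher, 2 were lower and 7 were not called, where 21.5% of all genes were called. SCG3 was higher (0.58 ± 0.11), and SCG2 (-0.81 ± 0.14, adjusted p = 0.00341) and CHGB were lower. The call of CHGB was lost in 10 of the up to 25 settings.

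Each label was then set against the mean of 7 other hypothalamic labels at the same ZT (84 libraries, shared by both comparisons), to see on which side a difference lay. Of 13813 genes tested 8965 (64.9%) were called for the arcuate libraries and of 13758 tested 7805 (56.7%) for the ventromedial ones. These counts moved with scaling: 81.6% of the arcuate calls were higher as deposited, 63.4% after median-of-ratios scaling and 45.6% after quantile normalization, while the median over all genes went from 0.39 to 0.14 and -0.09. For the ventromedial libraries the shares were 79.6%, 59.7% and 42.8% and the medians 0.27, 0.07 and -0.13. Only directions called under all 3 scalings are used below.

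All 12 named higher genes were higher in the arcuate libraries than in the other labels. They were chosen by these same arcuate and ventromedial libraries, so this count is no independent support. Over all 13813 genes tested, 7313 were called higher for the arcuate libraries as deposited and 4093 after quantile normalization. In the ventromedial libraries 3 of 11 tested (AGRP, POMC and GALP) were also higher than in the other labels, 2 (AGTR1 and SFRP2) were lower and 6 were neither. Over all 13758 genes tested there, 6212 were called higher and 1593 lower as deposited. After quantile normalization 4096 were higher and 5476 lower. These counts over all genes are each from 1 scaling, while those of the named genes require all 3. For AGRP the difference from the other labels was 7.24 ± 0.35 in the arcuate libraries, 6.86 relative to the median gene, and 2.73 ± 0.53 in the ventromedial ones, 2.46 relative to the median gene. For GHRH it was 4.64 ± 0.35 and 2.80 ± 0.64, so both labels held more GHRH than the average of the rest. By mean level AGRP stood at 497.2 FPKM in Arcuate nucleus, 147.3 in Supraoptic nucleus, 131.5 in Mammilliary body and 63.2 in Ventromedial hypothalamus. The Supraoptic nucleus mean rested on few libraries, since its median was 2.85 FPKM and its highest library 1681 FPKM, whereas Mammilliary body had a median of 87.3 FPKM. For GHRH the order was Mammilliary body at 135 FPKM, Arcuate nucleus at 120.9 and Ventromedial hypothalamus at 86.7, with lowest to highest ranges of 3.86 to 467.4, 27 to 549.2 and 0.397 to 590.5 FPKM that overlap almost wholly.

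Of the 12 named lower genes, chosen by these same libraries as well, 9 were lower in the arcuate libraries than in the other labels. The remaining 3 (HCRT, HDC and ADCYAP1) were neither. Over all 13813 genes tested, 1652 were called lower for the arcuate libraries as deposited and 4891 after quantile normalization. In the ventromedial libraries 6 were higher than in the other labels (PMCH, CRHBP, HCRT, HDC, TAC1 and ADCYAP1) and 6 were neither. Over all 13758 genes tested, 6212 were called higher for the ventromedial libraries as deposited and 4096 after quantile normalization. PMCH differed on both sides, by -3.01 ± 0.58 in the arcuate and 3.46 ± 0.74 in the ventromedial libraries. TRH differed on the arcuate side, with -2.71 ± 0.36 there and -0.04 ± 0.21 (adjusted p = 0.893) in the ventromedial libraries. HDC showed the reverse, with 0.16 ± 0.33 (adjusted p = 0.683) and 2.56 ± 0.27. Mean PMCH was 7642 FPKM in Dorsomedial hypothalamus, 3503 in Paraventricular nuclei, 3426 in Lateral hypothalamus and 2258 in Ventromedial hypothalamus, whose libraries overlap with all 3. Mean HCRT was 434.6 FPKM in Lateral hypothalamus, 288.9 in Ventromedial hypothalamus and 241.8 in Dorsomedial hypothalamus, again with overlapping ranges.

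**Figure D4:**
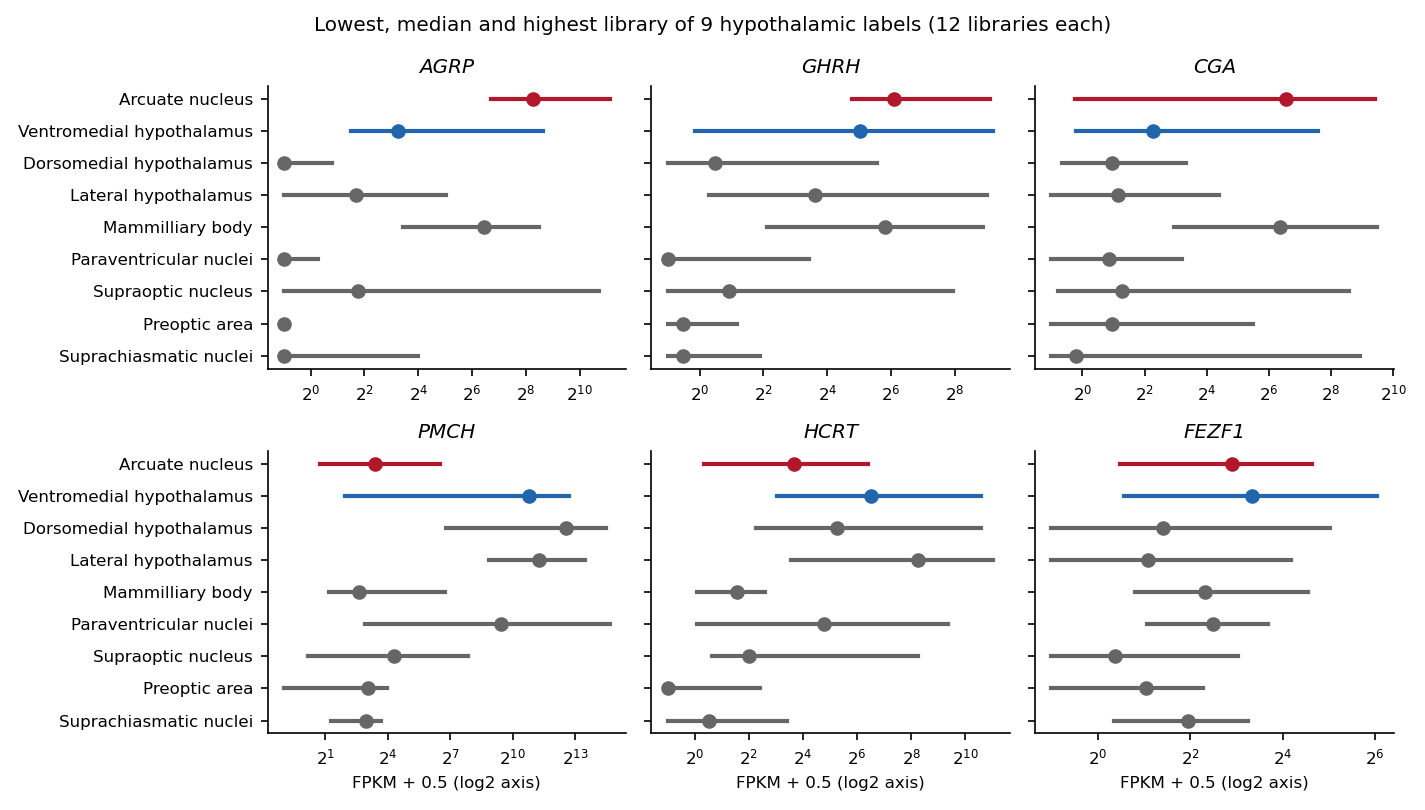
Lowest, median and highest level over the 12 libraries of each of 9 hypothalamic labels for 6 genes, as FPKM + 0.5 on a log2 axis. AGRP is highest in Arcuate nucleus (median 309.7 FPKM), PMCH reaches its highest medians outside it, and CGA is spread over several labels with wide ranges.

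The genes whose level followed AGRP most closely over the 24 libraries were NPY, POMC and GABRE, out of 8070 genes with a symbol that averaged at least 5 FPKM. Pearson's r of log2 values with AGRP was 0.985 for NPY, 0.926 for POMC and 0.884 for GABRE, and these values include the difference between the labels. Within the 12 arcuate libraries r was 0.955 for NPY but 0.227 for POMC and 0.469 for GABRE, and within the 12 ventromedial libraries 0.962, 0.946 and 0.892. POMC thus followed AGRP among the ventromedial libraries, where ZT4 and ZT18 stand apart, and hardly among the arcuate ones. GABRE, the epsilon subunit of the GABA-A receptor, ran from 19.2 over 30.5 to 61.4 FPKM (ZT18) in the arcuate libraries and from 6.58 over 15.6 to 50.3 FPKM (ZT4) in the ventromedial ones. GHRH ranked at place 66 with r = 0.671. These correlations describe libraries that share animals and punches, and no test was made of them.

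Daily variation was examined in each label by fitting a 24 h cosine. Each time is 1 animal, so time and animal cannot be told apart. In the arcuate libraries 3 of 14420 genes were called (0.0208%, limma): PAQR4, ARNTL and STOM. ARNTL encodes BMAL1, the activator of the core clock. Its arcuate level was lowest at ZT4 (7.56 FPKM, the approx column; 7.90 FPKM at ZT2), rose to 28 FPKM at ZT14 and was 11.9 FPKM at ZT22, with a log2 amplitude of 0.80 ± 0.09, a fitted peak at ZT14.3 and a fitted peak-to-trough fold of 3.01 (adjusted p = 0.0323). PAQR4, a progestin and adipoQ receptor family member, ran from 3.53 FPKM at ZT18 to 34.6 FPKM at ZT6 (amplitude 1.26 ± 0.11, peak ZT5.72, adjusted p = 0.00387). STOM, the membrane protein stomatin, ran from 20.9 FPKM (ZT18) to 86.2 FPKM (ZT6), with an amplitude of 0.95 ± 0.11 (adjusted p = 0.0323). Summed astrocyte markers of the arcuate libraries were 10470 FPKM at ZT6 and 1038 FPKM at ZT18, and lowest at ZT8 (808.6 FPKM). The part of the cell content of the punches in these calls was not tested. Without the approx column PAQR4 alone was called (adjusted p = 0.033), and ARNTL was not (adjusted p = 0.197). Leaving out any other single library left 1 or 2 genes.

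In the ventromedial libraries no gene of 14138 was called (0%, limma), with 2685 at an unadjusted p under 0.05 and a lowest adjusted p of 0.127. The 3 genes of smallest p were TXLNA (amplitude 0.63), PEG10 (1.15) and TMEM43 (0.64), all with peaks between ZT1.24 and ZT3.19. This count rested on the library of ZT14, whose mitochondrial share of 45.3% was the highest of all 24: without it 1097 genes were called, with HLF, NR1D1, NR1D2, PER3 and TEF the 5 core clock genes among them. Whether that share has a part in the count was not tested.

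Core clock genes had larger amplitudes than most. In the arcuate libraries 7 of 17 were at an unadjusted p under 0.05 (876 genes, 6.08%, over all) with a median amplitude of 0.49 against 0.19 over all genes. In the ventromedial libraries 10 of 15 were (19% over all), with a median of 0.41 against 0.24. NR1D1, the repressor REV-ERBα, had its highest level at ZT0 in the arcuate libraries (88.1 FPKM) and at ZT20 in the ventromedial ones (37.8 FPKM), and fitted peaks at ZT22.2 and ZT22.3 with amplitudes of 1.27 ± 0.20 and 0.88 ± 0.14 (adjusted p = 0.175 and 0.127). PER3, a period gene, had fitted peaks at ZT2.74 and ZT1.30 and amplitudes of 0.60 ± 0.24 and 1.16 ± 0.21. ARNTL peaked at ZT14.3 and ZT14.5, about opposite to the period genes, and its amplitude was 0.80 ± 0.09 in the arcuate and 0.30 ± 0.08 in the ventromedial libraries. The difference of the ARNTL rhythms had an amplitude of 0.50 ± 0.11 and was not called (adjusted p = 0.391). It was tested over the 12 pairs, of which those of ZT4 and ZT10 are not within an animal.

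No gene of 14326 was called for a difference in rhythm between the labels (0%, limma), with 1418 (9.90%) at an unadjusted p under 0.05 and a lowest adjusted p of 0.163. The 3 of smallest p were PRKACB, a catalytic subunit of protein kinase A (amplitude of the difference 0.93), KHDRBS2 (1.16) and DZIP3 (0.81). In overall level 3 of 16 clock genes differed, a share near the 21.5% called over all genes: NR1D2 (0.47 ± 0.15) and BHLHE41 (0.43 ± 0.13) were higher in the arcuate libraries and CRY1 was lower in 12 of 12 pairs (-0.36 ± 0.10, adjusted p = 0.0183). The calls of NR1D2 and BHLHE41 held in 12 and 14 of 25 other settings, that of CRY1 in all 25.

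**Figure D5:**
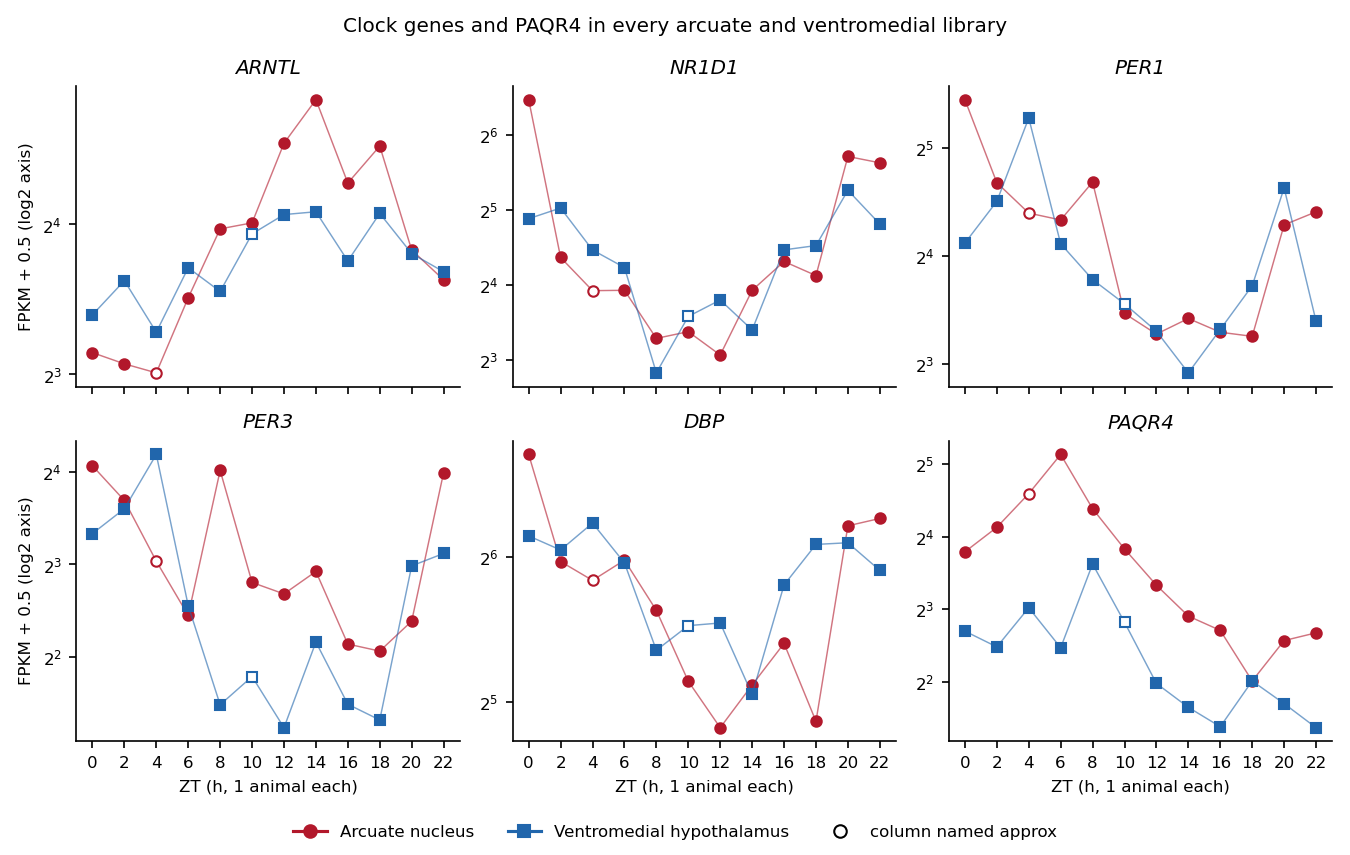
Level of 6 genes by zeitgeber time in arcuate (red circles) and ventromedial (blue squares) libraries, as FPKM + 0.5 on a log2 axis with open symbols for the approx columns. Arcuate ARNTL is low at ZT4 and high at ZT14, NR1D1 is high around ZT22 in both labels, and arcuate PAQR4 is high around ZT6.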

How the data were processed

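Levels in 24 hypothalamic punches were taken from a deposited table of FPKM values that the authors computed for 29202 genes, 20432 of which carry a symbol. STAR, featureCounts and DESeq2 are listed, per the submitters' processing notes. Their versions and roles were not given in the sources used here, nor was the build. All values of the 26546 rows above 0 were whole reads times a step for gene and library (within 0.01 read), from which reads per library were recovered. No sequence is shown. Values were taken as log2(FPKM + 0.5), genes with a mean under 1 FPKM over the libraries of a fit were left out, and limma 3.58.1 (R 4.3.3, variance trend on) was fitted with the animal as a block, except in the rhythm fits of a single label, which have none. P-values were adjusted over all genes tested and read against 0.05. The scripts were tested on simulated data. ZT pairs the libraries because the labels give 1 animal a time. Deviations from the label means correlated from -0.42 to 0.38 within pairs, over 0.1 in 7 of 12. Named genes are, in each direction, the 12 of largest difference called with an average of at least 5 FPKM in the higher group and alike in at least 11 of 12 pairs, members of the gene lists when called, the 3 genes of smallest p in each rhythm test and the 3 genes most like AGRP. NR5A1, FEZF1, KISS1, SST, ESR1, LEPR and GFAP were named beyond this rule with their values known. The members, gene lists and tests were chosen with earlier results of these data known. The p-values measure spread over the 12 ZTs, with 1 library a label at each. By the labels each ZT is 1 animal, but the approx columns at ZT4 and ZT10 did not match their own animal. The alternatives without ZT4 and ZT18 were chosen after seeing the data, by the AGRP level of their ventromedial libraries.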

Additional observations from a re-analysis of the deposited data

How the results depend on the processing

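The 3084 genes called between the labels became 3326 without the approx columns, 3220 without the pairs of ZT4 and ZT18 and 2386 without ZT4, ZT10 and ZT18 (both chosen after seeing the data), and 2542 by an exact sign-flip test. Without the replicate block 2667 were called, 1386 higher and 1281 lower, and the counts against the other labels were 8551 and 7919. Without it GHRH, OXT, NPVF, GAD2, CX3CR1, NR1D2 and BHLHE41 were among the named genes no longer called. Leaving out 1 pair at a time gave 1911 to 4170 genes, 997 to 2430 of them higher and 914 to 1740 lower. With a mean of 5 FPKM or more, which leaves fewer genes to test, 1097 were higher, and 5543 and 4966 were called against the other labels for the arcuate and ventromedial libraries. The 3 rhythmic genes of the arcuate libraries became 1 without the approx column, 1 with median-of-ratios scaling, 1 without the variance trend, 0 with a linear trend in the fit (414 at an unadjusted p under 0.05), and 1 to 2 without any single library; the cause was not tested. For the ventromedial rhythm the counts without a single library ran from 0 to 1097, and for the difference of rhythms from 0 to 1. Of 100 named genes called, 59 were called in every alternative in which they were tested (up to 25) and 41 lost the call in at least 1. No named gene changed the sign of a called difference between the labels under them. Scaling did turn the balance of calls, from 1680 higher and 1404 lower to 1506 and 1835 with median-of-ratios scaling and 1413 and 1580 with quantile normalization, and the median gene against the other labels, from 0.39 to -0.09 (arcuate) and 0.27 to -0.13 (ventromedial) with quantile normalization. At depths of 2.84 M to 7.88 M reads, genes near the filter of 1 FPKM are the least precise.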
